A study of Mus musculus with 8 samples.

Results

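The 10 genes described here mark the early and late granule programmes of developing neutrophils and were followed across bone fractions of the skull vault and the femur. Of these, 5 are transcribed early in neutrophil development (Mpo, Elane, Prtn3, Ctsg and Ms4a3) and 5 are transcribed late (Ltf, Camp, Ngp, S100a8 and S100a9). They were taken by symbol, each matching 1 gene of the deposited raw counts, and make up 10 of 43346 genes. All 10 were among the 15511 genes that passed the filter on low counts.

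RNA was sequenced from osteocyte-enriched fractions of frontal bone (3 libraries), parietal bone (2) and femur (3) of C57BL/6 mice aged 12 weeks, with no treatment or mutation named, to compare osteocyte transcriptomes between these bones. Each library is named after its bone and the number its label carries (1, 2 or 4). Separate and pooled animals are not told apart in the labels, so a p-value here covers the spread among libraries, technical spread included. Total gene counts ran from 6259229 in femur library 1 to 13461622 in parietal library 2.

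Neutrophils fill their granules in an ordered way while they mature in bone marrow. Promyelocytes make the proteins of azurophil (primary) granules, myeloperoxidase and the serine proteases among them. Myelocytes and later stages then make the proteins of specific (secondary) granules, such as lactoferrin and cathelicidin, and the abundant calcium-binding proteins S100A8 and S100A9, which lie mainly in the cytosol. The transcription factors PU.1 and the C/EBP family drive much of this sequence.

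The promoters of 4 of these genes are shown, those with the largest and the smallest difference from femur in the early set (Ms4a3, Mpo) and in the late set (S100a8, Ltf), a choice made after the values were seen. Each sequence is from RefSeq on build GRCm38.p6, 5′ to 3′ on the gene's strand, and holds 250 bases before and 50 from RefSeq's start of the gene. Capitals mark the word GAGGAAG, a PU.1 motif, and the word TTNNGNAA, a C/EBP motif, on either strand.
Ms4a3 (chr19:11640802-11641101, minus strand): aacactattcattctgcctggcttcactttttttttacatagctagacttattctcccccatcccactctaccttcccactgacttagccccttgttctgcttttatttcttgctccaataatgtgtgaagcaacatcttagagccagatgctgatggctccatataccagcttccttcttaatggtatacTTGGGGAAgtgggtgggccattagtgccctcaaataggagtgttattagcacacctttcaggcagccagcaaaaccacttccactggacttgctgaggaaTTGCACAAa
Mpo (chr11:87793534-87793833, plus strand): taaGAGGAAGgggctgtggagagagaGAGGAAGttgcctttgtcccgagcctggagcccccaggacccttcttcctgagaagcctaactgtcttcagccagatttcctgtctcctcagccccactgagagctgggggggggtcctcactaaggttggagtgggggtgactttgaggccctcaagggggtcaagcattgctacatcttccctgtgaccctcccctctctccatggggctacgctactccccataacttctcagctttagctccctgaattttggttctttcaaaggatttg
S100a8 (chr3:90668821-90669120, plus strand): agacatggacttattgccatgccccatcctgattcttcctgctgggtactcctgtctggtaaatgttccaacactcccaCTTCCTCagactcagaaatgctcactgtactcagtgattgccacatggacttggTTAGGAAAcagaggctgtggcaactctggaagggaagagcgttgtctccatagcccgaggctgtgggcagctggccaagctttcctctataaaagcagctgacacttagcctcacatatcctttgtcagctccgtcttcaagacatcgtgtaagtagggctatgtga
Ltf (chr9:111019042-111019341, plus strand): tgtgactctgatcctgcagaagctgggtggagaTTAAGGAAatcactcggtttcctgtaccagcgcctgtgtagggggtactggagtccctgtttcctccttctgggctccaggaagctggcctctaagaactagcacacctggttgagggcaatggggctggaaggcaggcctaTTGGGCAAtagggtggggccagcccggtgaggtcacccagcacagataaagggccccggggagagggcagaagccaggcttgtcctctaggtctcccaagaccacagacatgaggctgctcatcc
The PU.1 word stood in 4 of 5 early promoters (Mpo, Elane, Prtn3 and Ctsg) and in 1 of 5 late ones (S100a8, on the opposite strand), against 13.6% of the 32851 promoters in the RefSeq table. The C/EBP word stood in 1 of 5 early promoters (Ms4a3) and in 4 of 5 late ones (Ltf, Ngp, S100a8 and S100a9), against 40.7% of all promoters. Camp had neither. In Elane the PU.1 word began 85 bases before the start, at position -85, and in Prtn3 at -95. Mpo held it at -247 and -224, both at the end of the window far from RefSeq's start. These positions count from RefSeq's start, which can differ from the GENCODE gene starts given below. The Mpo window (87793534 to 87793833) contains the GENCODE start, 87793581, which lies just after both PU.1 words and well before RefSeq's start. The Prtn3 window (79879417 to 79879716) lies wholly inside the GENCODE gene, which begins at 79874476. Marked words did not overlap one another in any of the 10 promoters. These are letter matches and do not show binding.

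The fractions were first compared as wholes. The granule genes called higher in calvaria (the mean of frontal and parietal bone) than in femur were 2.08 (Prtn3) to 3.79 (S100a8) times as abundant there. The 10 genes together took 7.54, 6.17 and 7.49% of all gene counts in the frontal libraries (1, 2 and 4) and 8.40 and 7.57% in the parietal ones (2 and 4), against 1.62, 2.96 and 4.20% in femur libraries 1, 2 and 4. The 5 late genes made up nearly all of this, at 5.83 to 7.14% in frontal, 7.25 to 8.11% in parietal and 1.5 to 4.0% in femur libraries. The 5 early genes took 0.344 to 0.407% in frontal, 0.283 to 0.320% in parietal and 0.113 to 0.200% in femur libraries. Every calvarial library stood above every femur library in both shares. In bulk RNA, more cells of a type and more RNA per cell cannot be told apart.

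Each gene was tested with edgeR's quasi-likelihood test over all 3 bones, with p-values adjusted by the Benjamini-Hochberg method over 15511 genes and a gene called at an adjusted p under 0.05. In calvaria against femur 7 of the 10 genes were called higher, 4 early and 3 late, where 29.6% of all genes tested were called higher and 31.4% lower. The median log2 fold change was 1.35 for the early genes, 1.30 for the late genes and 0.01 for all genes tested. In frontal bone against femur 8 of 10 were called higher (5 early, 3 late), where 27.2% of all genes were called higher and 28.5% lower. In parietal bone against femur 7 of 10 were called higher (4 early, 3 late), where 27.1% of all genes were called higher and 28.6% lower. By edgeR, as by DESeq2, 0 of the 10 were called lower in these comparisons, which share the femur libraries, and 0 had an unadjusted p under 0.05 in that direction. On a scale set by 13 genes shared by leukocytes, 5 of 10 were called higher in calvaria. There 946 of 15511 genes were called higher and 8178 lower, and the values of Mpo, Ltf and Ngp turned negative.

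**Figure D1:**
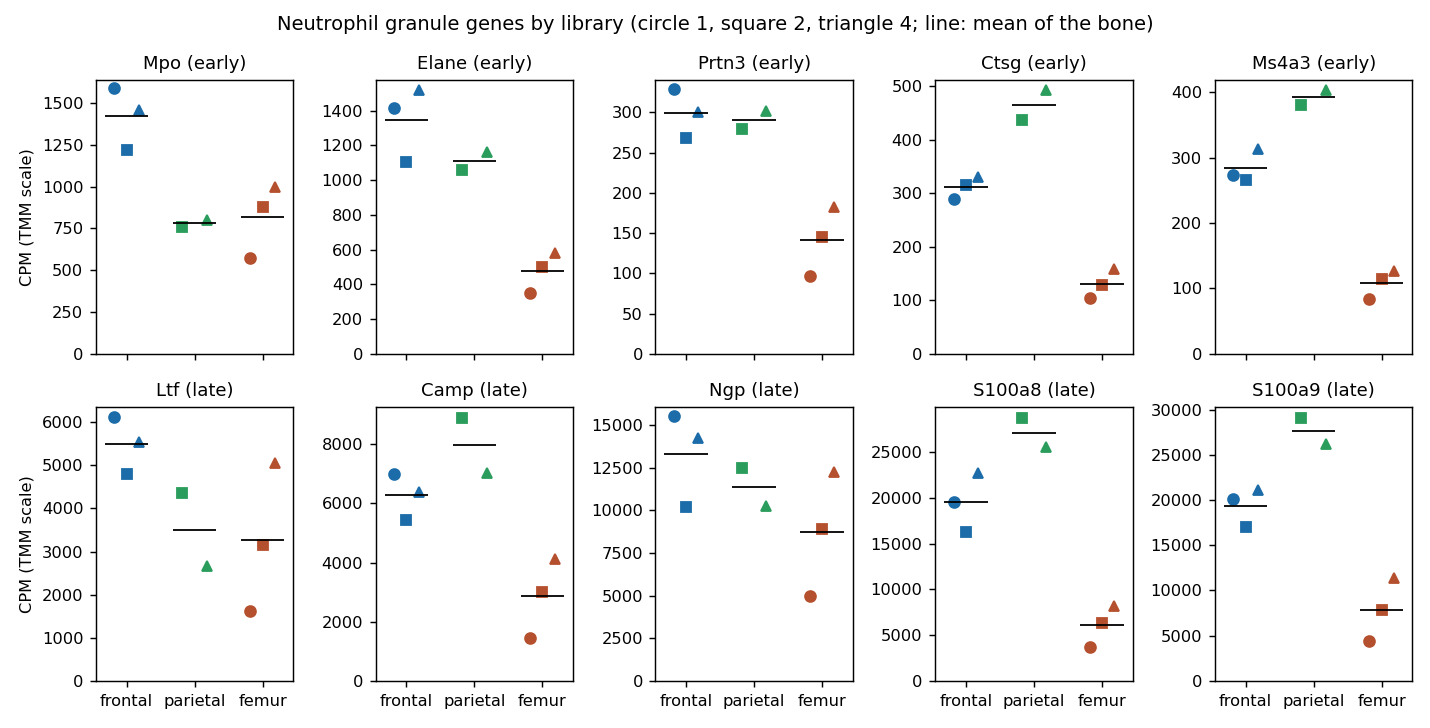
CPM (TMM scale, vertical axes from 0) of the 10 genes in each library, by bone, with early genes in the upper row and late genes in the lower row. Points are libraries and lines are bone means; the calvarial and femur libraries overlap in the panels of Mpo, Ltf and Ngp and in no others.

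Among the early genes, Elane encodes neutrophil elastase, a serine protease (chromosome 10, 79886247 to 79888215, plus strand, GRCm38). Frontal libraries 1, 2 and 4 had 1413, 1107 and 1520 CPM (edgeR's counts scaled by library size, with TMM factors) and parietal libraries 2 and 4 had 1060 and 1164 CPM, against 352, 501 and 583 CPM in femur libraries 1, 2 and 4. All 5 calvarial libraries lay above the 3 femur libraries. The log2 fold change of calvaria against femur was 1.35 ± 0.18 (SE, adjusted p = 4.69e-05 by edgeR's quasi-likelihood test), a 2.56-fold difference. It was 1.49 in frontal bone and 1.22 in parietal bone against femur. Frontal and parietal libraries overlapped (0.28 ± 0.21, adjusted p = 0.415 by edgeR).

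Prtn3 encodes proteinase 3, a related serine protease whose gene lies 3073 bases from Elane (chromosome 10, 79874476 to 79883174, plus strand). It was measured at 329, 269 and 301 CPM in the frontal and at 279 and 302 CPM in the parietal libraries, against 96.5, 145 and 183 CPM in femur libraries 1, 2 and 4. The calvarial libraries spanned a narrow range, all above femur, with no separation of the frontal from the parietal ones. Calvaria exceeded femur by a log2 fold change of 1.06 ± 0.18 (adjusted p = 0.000346, edgeR), and frontal and parietal bone differed by 0.05 ± 0.22 (adjusted p = 0.913, edgeR). Plppr3, on the opposite strand, overlaps Prtn3 and had 41 to 171 counts per library beside 561 to 3645 counts of Prtn3. The strand setting of the counts is not given in the sources used here.

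Ctsg encodes cathepsin G, another serine protease of azurophil granules (chromosome 14, 56099881 to 56102574, minus strand). Frontal libraries held 289, 316 and 331 CPM and parietal libraries 437 and 493 CPM, against 105, 128 and 159 CPM in femur libraries. Both parietal libraries were the highest and all femur libraries the lowest. The log2 fold change of calvaria against femur was 1.54 ± 0.15 (adjusted p = 4.09e-06, edgeR), with 1.25 for frontal and 1.83 for parietal bone. Frontal against parietal bone gave -0.58 ± 0.17, which did not pass (adjusted p = 0.0588, edgeR) but passed by DESeq2 (-0.57, adjusted p = 0.0197). It also passed by edgeR with no filter on low counts (-0.54, adjusted p = 0.0282) and without femur library 1 (-0.54, 0.0279) or femur library 4 (-0.57, 0.0322).

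Ms4a3, a membrane protein of granulocyte and monocyte progenitors and not itself a granule protein, followed the same order (chromosome 19, 11629496 to 11640851, minus strand). It stood at 274, 265 and 313 CPM in frontal and 381 and 403 CPM in parietal libraries, against 84.1, 115 and 126 CPM in femur libraries. As for Ctsg, the parietal libraries were highest and the femur libraries lowest, without overlap. Calvaria exceeded femur by 1.62 ± 0.15 on the log2 scale (3.07-fold, adjusted p = 2.93e-06, edgeR), the largest difference among the early genes. Frontal against parietal bone gave -0.47 ± 0.17 (adjusted p = 0.0988, edgeR), and passed without femur library 1 (-0.43, adjusted p = 0.0408). Ctsg and Ms4a3 had the closest pattern of any pair of the 10 genes (Pearson r = 0.993 of log2 CPM over 8 libraries).

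Mpo, which encodes myeloperoxidase, the enzyme that makes hypochlorous acid, departed from the other early genes (chromosome 11, 87793581 to 87804413, plus strand). Frontal libraries 1, 2 and 4 had 1588, 1218 and 1455 CPM and parietal libraries 2 and 4 had 758 and 801 CPM, against 575, 876 and 1000.0 CPM in femur libraries 1, 2 and 4. Frontal libraries were highest, and both parietal libraries lay inside the femur range. In frontal bone Mpo was higher than in femur by a log2 fold change of 0.80 ± 0.19 (1.74-fold, adjusted p = 0.00407, edgeR). In parietal bone the value was -0.07 ± 0.21 (adjusted p = 0.804, edgeR), and in calvaria as a whole 0.37 ± 0.17, which did not pass (adjusted p = 0.0884, edgeR).

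Mpo was also the only one of the 10 genes called between the calvarial bones. In frontal against parietal bone 1 of 10 was called higher and 0 lower by edgeR, where 3.91% of all genes tested were called higher and 3.29% lower. At an unadjusted p under 0.05 by edgeR, 2 of the 10 (Ctsg and Ms4a3) were lower and 1 (Mpo) was higher. At that threshold 4460 of all 15511 genes passed, in either direction. DESeq2 called 1 of the lower genes, Ctsg. For Mpo the log2 fold change was 0.87 ± 0.22 (1.82-fold, adjusted p = 0.0408, edgeR), and all 3 frontal libraries lay above both parietal ones. The call was lost without frontal library 1 (0.78, adjusted p = 0.148), frontal library 4 (0.89, 0.0676), parietal library 2 (0.86, 0.185), parietal library 4 (0.95, 0.238) or femur library 2 (0.87, 0.0689), while the direction held in each. It was also lost with the libraries' numbers as a replicate block (0.94, adjusted p = 0.102). In each of these settings except that without frontal library 4, 0 of all genes tested were called between these bones. An overlapping gene on the opposite strand, Gm11505, had at most 2 counts in any library beside 3346 to 13288 counts of Mpo.

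**Figure D2:**
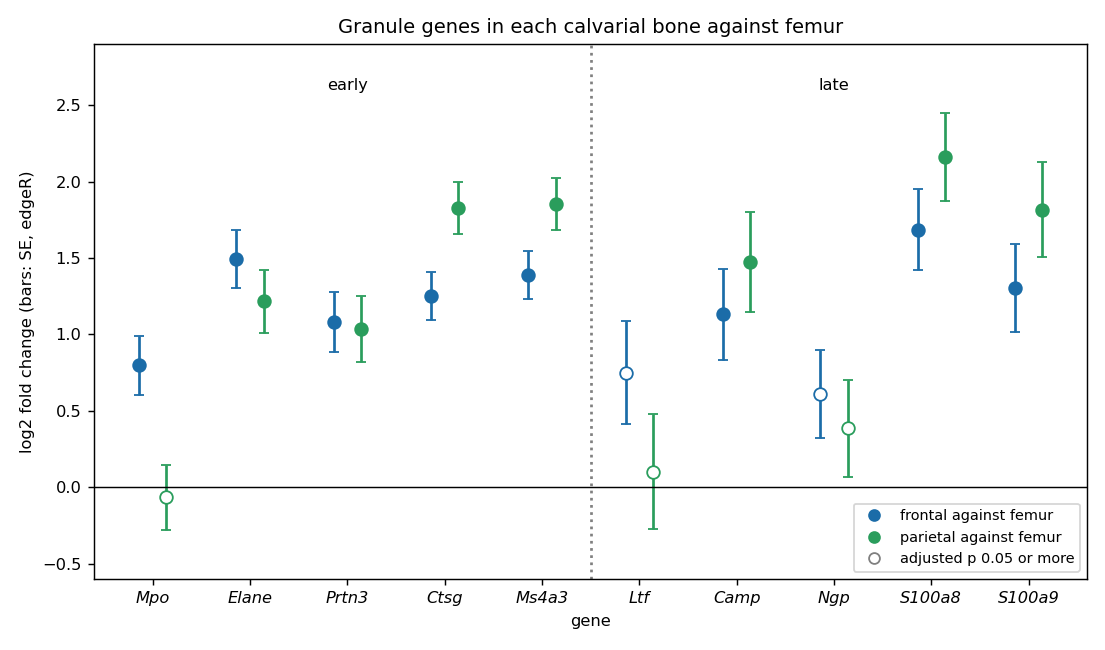
Log2 fold change (vertical axis; bars are SE) of each gene in frontal bone and in parietal bone against femur, with early genes left of the dotted line and late genes right of it. Open symbols did not pass at an adjusted p of 0.05; Mpo in parietal bone (-0.07) and Ltf in parietal bone (0.10) lie nearest to 0.

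Among the late genes, S100a8 and S100a9 encode the subunits of calprotectin and lie 22597 bases apart on chromosome 3 (90668978 to 90670035, plus strand, and 90692632 to 90695721, minus strand). S100a8 had 19544, 16320.0 and 22724 CPM in frontal and 28698 and 25569 CPM in parietal libraries, against 3747, 6340 and 8132 CPM in femur libraries 1, 2 and 4. Parietal libraries were highest and femur libraries lowest, with no overlap among the bones. The log2 fold change of calvaria against femur was 1.92 ± 0.25 (3.79-fold, adjusted p = 4.39e-05, edgeR), the largest of the 10 genes.

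S100a9 ran closely beside it (r = 0.991 over 8 libraries). It had 20059, 16983 and 21062 CPM in frontal and 29063 and 26159 CPM in parietal libraries, against 4385, 7788 and 11362 CPM in femur libraries. The bones again did not overlap. Calvaria exceeded femur by 1.56 ± 0.27 on the log2 scale (2.95-fold, adjusted p = 0.00037, edgeR). The values of frontal against parietal bone, -0.47 ± 0.29 for S100a8 (adjusted p = 0.296) and -0.51 ± 0.31 for S100a9 (adjusted p = 0.304), did not pass by edgeR.

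Camp encodes cathelicidin, the precursor of an antimicrobial peptide of specific granules (chromosome 9, 109847379 to 109849617, minus strand). It had 6975, 5449 and 6385 CPM in frontal and 8887 and 7022 CPM in parietal libraries, against 1462, 3011 and 4121 CPM in femur libraries. Every calvarial library was above every femur library, and the parietal libraries were above the frontal ones. The log2 fold change of calvaria against femur was 1.30 ± 0.28 (2.47-fold, adjusted p = 0.00167, edgeR). In frontal bone alone it was 1.13 ± 0.30 (adjusted p = 0.00713, edgeR), a call that was lost when no filter on low counts was used (1.17, adjusted p = 0.0821). Frontal against parietal bone gave -0.34 ± 0.33 (adjusted p = 0.522, edgeR).

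Ngp, which encodes neutrophilic granule protein, a mouse granule protein related to cathelicidins, differed less (chromosome 9, 110419747 to 110423012, plus strand). Frontal libraries had 15552, 10181 and 14232 CPM and parietal libraries 12506 and 10272 CPM, against 4986, 8899 and 12287 CPM in femur libraries 1, 2 and 4. Femur library 4 lay inside the calvarial range. The log2 fold change was 0.50 ± 0.26 in calvaria (adjusted p = 0.12), 0.61 ± 0.29 in frontal bone (0.0911) and 0.39 ± 0.32 in parietal bone (0.325) against femur, and none passed by edgeR. In frontal bone it passed by DESeq2 (0.61, adjusted p = 0.0437), and by edgeR without frontal library 2 (0.78, adjusted p = 0.0456).

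Ltf encodes lactoferrin, the iron-binding protein of specific granules (chromosome 9, 111019271 to 111042767, plus strand). It had 6129, 4803 and 5547 CPM in frontal and 4353 and 2669 CPM in parietal libraries, against 1615, 3149 and 5049 CPM in femur libraries 1, 2 and 4. Frontal libraries were above the parietal ones, and femur library 4 reached into the frontal range. The log2 fold change was 0.43 ± 0.31 in calvaria (adjusted p = 0.253), 0.75 ± 0.34 in frontal bone (0.0812) and 0.10 ± 0.38 in parietal bone (0.833) against femur, and none passed by edgeR. Frontal against parietal bone gave 0.65 ± 0.38 (adjusted p = 0.293, edgeR).

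Femur library 4 had the highest level of each of the 10 genes among the femur libraries. Without that library Mpo (0.53, adjusted p = 0.0233), Ltf (0.88, 0.0174) and Ngp (0.82, 0.0165) were called higher in calvaria by edgeR, so that all 10 were, where 4429 of 15483 genes were called higher and 4628 lower. In frontal bone Ltf (1.20, 0.00539) and Ngp (0.94, 0.013) were then called as well. The same library held the lowest share of counts in 8 osteocyte genes, at 2.32% against 4.59 and 4.54% in femur libraries 1 and 2. The part of this in the granule gene values was not tested. Mpo was also called in calvaria with all libraries kept when no filter on low counts was used (0.39, adjusted p = 0.0127) or when libraries were scaled by size only (0.45, adjusted p = 0.0499). Femur library 1 had the lowest level of each of the 10 genes among the femur libraries. Without it the log2 fold changes of all 10 in calvaria were smaller. They were 0.14 (adjusted p = 0.376) for Mpo, 0.07 (0.795) for Ltf and 0.19 (0.412) for Ngp by edgeR. Then 7 of the 10 were called higher, where 4008 of 15443 genes were called higher and 4550 lower.

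Levels of different genes were set side by side as CPM per kilobase of exon sequence. In frontal bone and femur the order ran from S100a9 down through S100a8, Ngp and Camp, then Ltf and Elane, to Mpo, Ctsg, Prtn3 and Ms4a3. In parietal bone Camp stood above Ngp, Elane above Ltf, Ctsg above Mpo and Ms4a3 above Prtn3. In frontal bone S100a9 averaged 37103 ± 4072 CPM per kilobase and Ms4a3 151 ± 13.5 (SD, n = 3). In parietal bone S100a9 averaged 52895 ± 3934 and Prtn3, there the lowest, 168 ± 9.37 (SD, n = 2). In femur S100a9 averaged 15028 ± 6684 and Ms4a3 57.6 ± 11.6 (SD, n = 3).

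Neighbours in that order changed places between bones. Ngp was above Camp in frontal bone (10901.5 ± 2291 against 8272 ± 1015 CPM per kilobase) and in femur (7139 ± 2990 against 3779 ± 1762), while in parietal bone Camp and Ngp lay within 1 SD (10494 ± 1739.9 against 9320.2 ± 1292.5). Ctsg was above Mpo in parietal bone (450.0 ± 38.5 against 228 ± 8.98), and below it in frontal bone (302 ± 20.9 against 415 ± 54.8) and in femur (126.5 ± 26.4 against 239 ± 63.8). In femur S100a9 and S100a8, S100a8 and Ngp, Ltf and Elane, and Prtn3 and Ms4a3 were neighbours within 1 SD. In parietal bone Elane (1130 ± 74.3) and Ltf (1018 ± 345) were too, while Ms4a3 (208 ± 8.30) and Prtn3 (168 ± 9.37) were not. In frontal bone no neighbours lay within 1 SD.

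The late and early genes were then set against each other within each library, as the log2 ratio of their summed counts. Frontal libraries 1, 2 and 4 had ratios of 4.13, 4.08 and 4.16 and parietal libraries 2 and 4 ratios of 4.84 and 4.503, against 3.74, 4.05 and 4.32 in femur libraries 1, 2 and 4. Parietal libraries were highest, and frontal libraries lay within the femur range. The mean differed from femur by 0.09 in frontal bone and by 0.64 in parietal bone, and frontal bone was lower than parietal bone by -0.55.

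The sign of both differences from femur turned on how the ratio was formed, while frontal bone was below parietal bone in each form. As a difference of mean log2 CPM, in which each gene weighs alike, the values were -0.04 for frontal against femur, 0.08 for parietal against femur and -0.11 for frontal against parietal bone. Without S100a8 and S100a9, the 2 most abundant genes, they were -0.30, -0.17 and -0.13 in the same order. The ratio describes the libraries and was given no test.

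**Figure D3:**
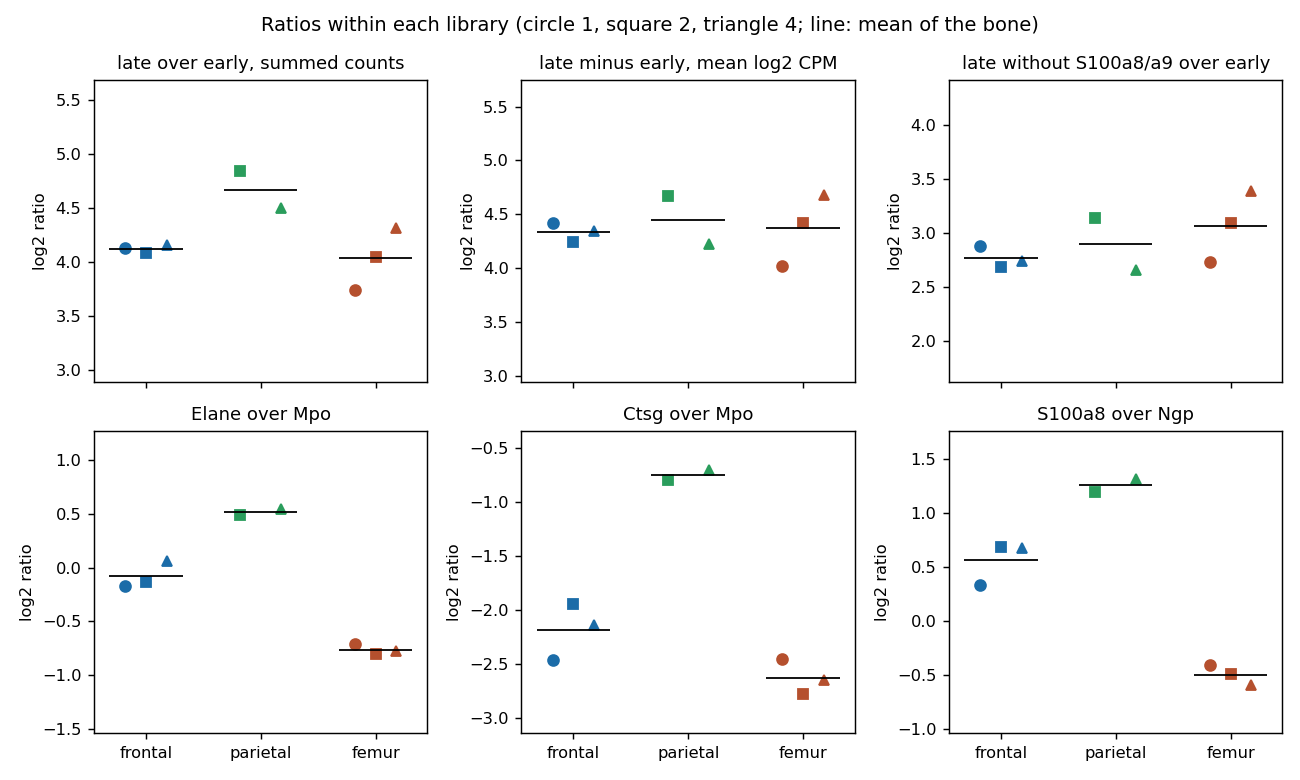
Log2 ratios (vertical axes) within each library, by bone, with lines at bone means. The upper panels form the late-to-early ratio in 3 ways, where the bones overlap in all but the parietal values of the first; in the lower panels Elane over Mpo and S100a8 over Ngp separate the 3 bones.

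Some ratios of single genes separated the bones more than the late-to-early ratio did, and were chosen after the values were seen. Elane counts were 0.890, 0.909 and 1.04 times Mpo counts in the frontal and 1.4 and 1.45 times in the parietal libraries, against 0.611, 0.573 and 0.583 times in femur libraries. The femur libraries lay close together and below all others, and the parietal libraries above all others. S100a8 counts were 1.26, 1.60 and 1.60 times Ngp counts in frontal and 2.29 and 2.49 times in parietal libraries, against 0.752, 0.712 and 0.662 times in femur libraries.

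The geometric mean of Camp over Ngp was 0.476 in frontal and 0.697 in parietal bone, against 0.322 in femur. For Ctsg over Mpo it was 0.220 and 0.595, against 0.162, with frontal library 1 (0.182) just below femur library 1 (0.183). S100a8 over S100a9 was 1.00 and 0.982, against 0.793, with frontal and parietal libraries overlapping. Ms4a3 over Mpo (0.201 and 0.503, against 0.134) separated all the bones. So did S100a9 over Ltf (3.53 and 8.09, against 2.47) and Prtn3 over Elane (0.223 and 0.261, against 0.292). Ltf over Ngp (0.417 and 0.301, against 0.361) and Ms4a3 over Ctsg (0.910 and 0.845, against 0.830) overlapped among the bones. Both genes of each pair come from the same library, so library scaling does not enter these ratios.

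The make-up of the granule transcripts can also be read from each gene's share of the counts of all 10. Ngp took 21.6, 17.9 and 19.3% in frontal and 14.5 and 13.7% in parietal libraries, against 28.6, 28.8 and 28.6% in femur libraries 1, 2 and 4. That share was nearly equal among the femur libraries, whose Ngp levels ran from 4986 to 12287 CPM. Ltf averaged 8.15 ± 0.55% in frontal (SD, n = 3) and 4.30 ± 1.04% in parietal bone (n = 2), against 10.4 ± 1.25% in femur (n = 3). S100a8 went the other way, at 28.8 ± 1.84% and 33.7 ± 0.67%, against 20.3 ± 1.32%. Camp took a like share in all bones, at 9.30 ± 0.57% in frontal, 9.83 ± 0.64% in parietal bone and 9.24 ± 0.73% in femur.

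Genes of like pattern were sought by Pearson correlation of log2 CPM over the 8 libraries, among 13089 genes. Closest to the mean of the early genes were Gpx1 (glutathione peroxidase), Blvrb (biliverdin reductase B), Hbb-bs (a beta globin), Cldn13 and Cdca3, with r of 0.996 to 0.998. Closest to the mean of the late genes were Pilra, Ostf1, Alox5ap, Ifitm6 and Trem3, with r of 0.991 to 0.995. Of the 10 genes themselves, Mpo had the lowest r with either mean, at 0.638 with the early and 0.633 with the late one. Among the late genes Mpo ran closest to Ltf (0.871) and Ngp (0.790), and less close to Camp (0.540), S100a8 (0.476) and S100a9 (0.470). Among the early genes it ran closer to Elane (0.719) and Prtn3 (0.677) than to Ms4a3 (0.410) or Ctsg (0.342). These r describe libraries that fall into a calvarial and a femur cluster and share their scaling.

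Other genes of neutrophil biology were then compared in calvaria against femur by edgeR, and log2 fold changes are given in brackets. Average CPM of calvaria is over all frontal and parietal libraries. Genes named without a call were chosen after their values were seen. Of 8 genes of azurophil granules and protease maturation 7 were called higher and 0 lower, with a median log2 fold change of 1.33. Plac8 (1.90), Serpinb1a, an inhibitor of neutrophil serine proteases (1.51), Nkg7 (1.58) and Fcnb, a ficolin of myeloid cells (1.33) had the smallest p. Ctsc, the protease that activates elastase, proteinase 3 and cathepsin G, averaged 314 CPM in calvaria against 312 CPM in femur (0.03 ± 0.11, adjusted p = 0.861).

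Of 12 genes of specific and gelatinase granules 6 were called higher and 1 lower, with a median of 0.71. Chil3, a chitinase-like protein (1.69), Mmp8, neutrophil collagenase (1.63), Hp, haptoglobin (0.87), and Lcn2, the siderophore-binding lipocalin (1.18), were among those called higher. Adam8, a membrane metalloprotease, was called lower (-0.54 ± 0.19, adjusted p = 0.027 by edgeR). Mmp9, the gelatinase, had an average of 553 CPM in calvaria against 480 CPM in femur (0.16 ± 0.31, adjusted p = 0.679). Cd177 (0.36) and Padi4 (0.40) did not pass either.

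Of 18 genes of the surface and cytosol of mature neutrophils 14 were called higher and 0 lower, with a median of 0.98. They included Ly6g, the mouse neutrophil surface antigen (2.81), Il1r2, the decoy receptor of interleukin 1 (1.81) and Wfdc21 (1.88). Csf3r, the receptor of granulocyte colony-stimulating factor, had 0.29 ± 0.20 (adjusted p = 0.226) and Cxcr2, a chemokine receptor of mature neutrophils, 0.47 ± 0.21 (adjusted p = 0.0684). Stfa2, Stfa2l1 and BC100530 are near-identical copies with uncertain counts. Of 6 genes of the NADPH oxidase, which makes superoxide in phagocytes, 6 were called higher, Cybb (0.82), Rac2 (1.09) and Ncf4 (0.81) among them. For each list with 0 genes called lower by edgeR, DESeq2 called 0 lower as well, and 0 had an unadjusted p under 0.05 in that direction.

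Transcription factors of granulopoiesis did not go with the granule genes. Of 8 tested 2 were called higher and 5 lower, with a median of -1.05. Runx1 (-1.94), Cebpb (-1.57), Gfi1 (-1.24), Cebpd (-1.19) and Cebpa (-0.91) were lower in calvaria. Cebpe, the C/EBP factor of specific granule genes (0.97 ± 0.28), and Myb, a factor of dividing progenitors (0.95 ± 0.18), were higher. Spi1, which encodes PU.1, averaged 102 CPM in calvaria against 114 CPM in femur (-0.18 ± 0.19, adjusted p = 0.436 by edgeR). Several of these factors are also made by cells other than neutrophils.

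Markers of other cell types moved with the granule genes between calvaria and femur. Of 15 monocyte and macrophage genes 11 were called higher and 2 lower, and their summed level was 2104 to 2288 CPM in frontal and 2824 to 2834 CPM in parietal libraries, against 1028 to 1327 CPM in femur libraries. Ms4a6c (1.70), Ccr2 (1.48) and Ly6c2 (1.74), genes of inflammatory monocytes, rose, while Klf4 (-1.73) and Mertk (-1.78) fell. Of 14 basophil, mast cell and eosinophil genes 9 were called higher, among them Cpa3 (1.83), Ear1 (2.48), Prg2 (1.90) and Mcpt8 (1.78), and Gata2 was lower (-0.90). Their sum was 3168 to 4275 CPM in frontal and 3864 to 4047 CPM in parietal libraries, against 996 to 1423 CPM in femur libraries.

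Erythroid, B cell and proliferation genes did so too. Of 16 erythroid genes 16 were called higher (median 1.84), led by Car1 (3.80), Car2 (2.39), Klf1 (2.05) and Hbb-bs (1.95). Their sum was 70547 to 114413 CPM in frontal and 75863 to 79180 CPM in parietal libraries, against 13484 to 31038 CPM in femur libraries. Of 12 B cell genes 11 were called higher (median 1.61), led by Igll1 (2.22), Ms4a1 (2.14), Cd79b (2.01) and Dntt (2.15), with sums of 902 to 1122 CPM in frontal and 926 to 1104 CPM in parietal libraries, against 280.2 to 379 CPM in femur libraries. Of 10 proliferation genes 10 were called higher (median 1.67), with Ccnb1 (2.23), Tyms (2.06), Cdk1 (1.93) and Birc5 (2.25) first by p, and sums of 2209 to 2500 CPM in frontal and 2307 to 2388 CPM in parietal libraries, against 507 to 858 CPM in femur libraries.

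The osteocyte markers went against them. Of 8 osteocyte genes 0 were called higher and 7 lower in calvaria, with a median of -3.73, led by Fam20c (-3.76), Ackr3 (-3.44), Pdpn (-5.75) and Dmp1 (-6.04). They took 0.0759 to 0.122% of counts in frontal and 0.130 to 0.143% in parietal libraries, against 2.32 to 4.59% in femur libraries. Dmp1, a matrix protein of osteocytes, averaged 528 CPM in calvaria against 35309 CPM in femur. Sost, which encodes the osteocyte product sclerostin, averaged 24.2 CPM in calvaria against 306 CPM in femur. These 8 genes of the labelled cell type were thus counted in every library. In calvaria 7 of them were called lower than in femur and 1 was not called. No gene of these lists was at 0 in all libraries, and 2 of the basophil, mast cell and eosinophil list had 0 counts in some library. Globin, Ly6 and Ear genes have near-identical relatives, so their counts are uncertain. The part of these cell types in the granule gene differences was not tested.

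The granule genes were also scaled to 13 genes shared by leukocytes, of which 11 were called higher and 0 lower in calvaria on the TMM scale, at a median of 0.80. Cd48 (2.02), Arhgdib (1.55), Cd53 (0.80) and Ptpn6 (0.91) had the smallest p there. Laptm5 (-0.40) and Vav1 (0.01) were not called, so the 13 genes spanned -0.40 to 2.02 and did not shift alike. On that leukocyte scale the median of all genes was -0.81 for calvaria against femur, and 946 genes were called higher and 8178 lower, against 4596 and 4868 on the TMM scale. Ms4a3 (0.84), Ctsg (0.76), Elane (0.58), S100a8 (1.18) and S100a9 (0.84) were still called higher by edgeR. Prtn3 (0.30, adjusted p = 0.291) and Camp (0.59, adjusted p = 0.0557) were not. Mpo (-0.40), Ltf (-0.28) and Ngp (-0.23) turned negative without passing.

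**Figure D4:**
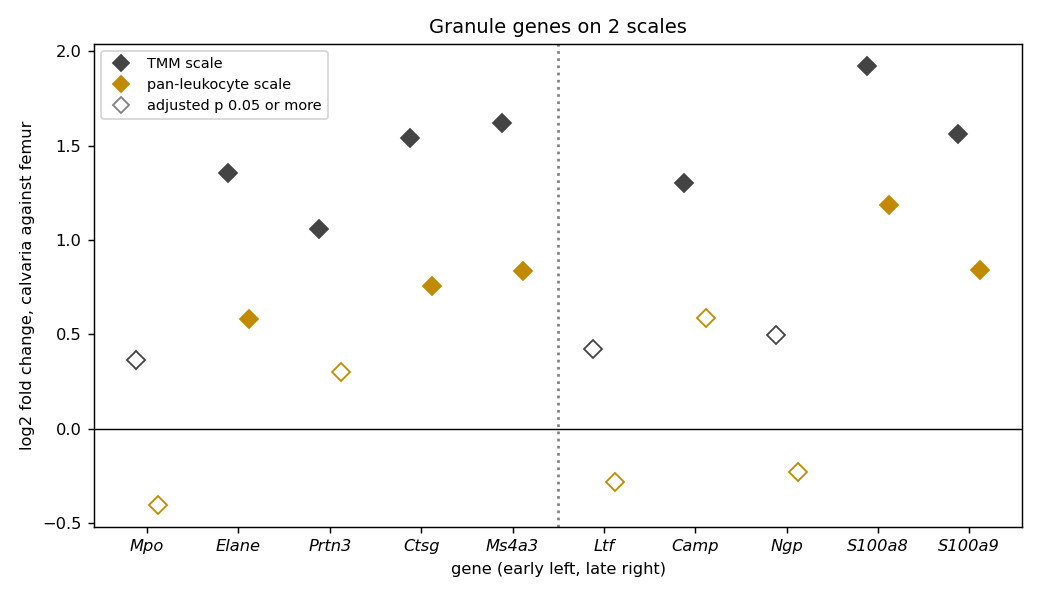
Log2 fold change of calvaria against femur (vertical axis) for the 10 genes on the TMM scale and on the scale of 13 pan-leukocyte genes, without error bars. Open symbols did not pass at an adjusted p of 0.05; on the leukocyte scale 5 genes passed and Mpo, Ltf and Ngp lie below 0.

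By bone, the leukocyte scale left 2 of 10 genes called higher in frontal bone (Elane at 0.65 and S100a8 at 0.88), where 668 genes were called higher and 8044 lower, against 4226 and 4413 on the TMM scale. In parietal bone 5 were called higher and Mpo lower (-0.76, adjusted p = 0.0436 by edgeR), where 1005 genes were called higher and 6733 lower, against 4199 and 4434. Between frontal and parietal bone 0 of the 15511 genes were called on it by edgeR, 2374 had an unadjusted p under 0.05, and Mpo stood at 0.72 (adjusted p = 0.29).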

How the data were processed

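The authors deposited raw counts per gene (whole numbers), which were used here. A filtered copy and a table of scaled values were not used. The submitters' processing notes name STAR 2.5.2a, limma, edgeR and DESeq2 as tools and mm10 and GRCm38.p3 as builds. What each did, how reads were counted, whether by strand, and on which annotation is not given in the sources used here. Libraries were made by the Nextera XT method, per the labels' protocols.

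Spike-ins (92 rows, 0.029 to 0.176% of counts) were left out. Genes were kept by filterByExpr, scaled by TMM and fitted by a robust quasi-likelihood model of 3 bones over 8 libraries with edgeR 4.0.16 in R 4.3.3 (5 residual degrees of freedom, biological coefficient of variation 18.6%). In fold changes calvaria is the mean of frontal and parietal bone, each weighing alike. Average CPM of calvaria is the mean over all frontal and parietal libraries, each library weighing alike. SE is the log2 fold change divided by the square root of F. Log2 CPM used a prior count of 1. Positions and exon lengths are from GENCODE M21 (GRCm38). The edgeR step was tested on simulated data. Another 14 settings were tried per comparison, among them DESeq2 1.42.0. Libraries of the same bone differed by more than sampling noise (chi-square over its degrees of freedom, at least 7.75).

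All 10 genes are named. Of each other list, the 4 genes of smallest p and those against their list's direction are named, except some genes that are not reported here. The genes, lists and rules were chosen with earlier results of these data known. Precision is limited by the number of libraries rather than by depth, with 489 to 380189 counts per granule gene and library.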

Additional observations from a re-analysis of the deposited data

Results flagged for a closer look

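Mpo differed between the calvarial bones, with a log2 fold change of 0.866 in frontal against parietal bone (adjusted p = 0.0408 by edgeR's quasi-likelihood test). It was singled out because its difference from femur, 0.80 in frontal and -0.07 in parietal bone, was not the same in both bones by this test. It was higher in 3 of 3 frontal libraries than in either parietal library. The call was kept under 7 of 14 other settings. It was lost without any 1 of 5 libraries, with the libraries' numbers as a replicate block (0.94, adjusted p = 0.102) and on the pan-leukocyte scale (0.72, adjusted p = 0.29). Bones with 2 or 3 libraries are too small for a check of single outlying libraries.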

How the results depend on the processing

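Each of the 10 genes was refitted under 14 other settings in each of 4 comparisons. Of these 560 values, 515 kept their direction and side of the threshold. On the pan-leukocyte scale, signs turned for Mpo (-0.40), Ltf (-0.28) and Ngp (-0.23) in calvaria, Mpo (-0.045), Ltf (-0.02) and Ngp (-0.18) in frontal bone, Ltf (-0.54) and Ngp (-0.28) in parietal bone against femur, and Prtn3 (-0.11) in frontal against parietal bone. That scale gave 2 genes of the 10 called higher in frontal bone, where 668 of 15511 genes were called higher and 8044 lower. In parietal bone it gave 1 lower, where 1005 genes were called higher and 6733 lower. Between frontal and parietal bone it gave 0 higher and 0 genes called in all. Leaving out 1 library at a time, signs also turned for Ltf in parietal bone without parietal library 2 (-0.322) or femur library 1 (-0.268), in a range of -0.322 to 0.552. They turned for Mpo in parietal bone without femur library 4, in a range of -0.309 to 0.095, and for Prtn3 in frontal against parietal bone without frontal library 1, in a range of -0.025 to 0.145.

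Between frontal and parietal bone 1118 genes were called, with 2056 by DESeq2 and 1904 with no filter on low counts. DESeq2 and no filter each called 1 of the 10 lower (Ctsg). Whether equal library numbers mark the same animals is not given in the labels. Same-numbered libraries had correlations of deviations from bone means of -0.096 to 0.145, and differently numbered ones -0.145 to 0.158. Deviations within a bone of 2 or 3 libraries are tied to each other. The check therefore cannot decide on a pairing, and a pairing was not established. With the numbers as a replicate block, 0 genes and 0 of the 10 were called there (3504 at an unadjusted p under 0.05 by edgeR), with Mpo at 0.94 (adjusted p = 0.102). The block changed no other call of the 10 genes. Scaled by library size only, 773 genes were called higher and 249 lower there, against 607 and 511. Leaving out 1 library at a time gave 0 to 1963 genes called, with 0 to 1 of the 10 higher and 0 to 2 lower. It gave 7 to 10 of the 10 higher in calvaria, 8 to 10 in frontal bone and 7 in parietal bone against femur.

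The late-to-early difference left out 1 library at a time ran from -0.06 to 0.23 for frontal bone and from 0.47 to 0.81 for parietal bone against femur, and from -0.72 to -0.38 for frontal against parietal bone. As mean log2 CPM it was -0.035, 0.079 and -0.114, and without S100a8 and S100a9 -0.30, -0.17 and -0.13, in the same order. The cause was not tested.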
